A study of Mus musculus with 12 samples.

Results

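miR-26a and miR-26b (mmu-miR-26a and mmu-miR-26b on the array) are the guide strands of the mouse miR-26 family. They are followed here across 4 treatments of 3T3-L1 preadipocytes, an established mouse line that differentiates into fat cells on hormonal induction. They were taken by their names in the scanner files, without passenger (star) strands, and are 2 of the 611 mouse miRNAs on the array. The 12 samples, each hybridised to 1 single-colour array, formed 4 groups of 3. Lithium plus MDI cells (n = 3) received lithium chloride at 25 mM and the differentiation medium MDI, and MDI cells (n = 3) received MDI without lithium. Lithium cells (n = 3) received lithium chloride at 25 mM alone, and untreated preadipocytes (n = 3) received neither. MDI contains a phosphodiesterase inhibitor, dexamethasone and insulin. Per the labels' protocols it was given for 3 days, then insulin alone for 2 days and plain medium for 2 days, up to day 7. The labels give no such schedule for the other 3 groups, so time in culture cannot be told apart from treatment. By the submitters' design lithium, which inhibits the kinase GSK3, stands for activated WNT signalling and MDI for suppressed WNT signalling. All 12 samples come from 1 cell line, and no label states whether the 3 samples of a group were grown apart. The p-values below therefore cover the spread among these samples alone, and that spread may be technical.

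A miRNA is a short RNA that guides repression of messenger RNAs that pair with its seed, the bases near its 5′ end. The miR-26 miRNAs lie in genes of the CTDSP family, small phosphatases that act on RNA polymerase II and on other proteins, and are known to be made from introns of these host transcripts. They are known to slow the cell cycle and to target the histone methyltransferase EZH2, and in human fat cell precursors the family has been reported to promote differentiation and brown fat traits through the protease ADAM17.

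The mature sequences are shown because both miRNAs have the same seed and differ at so few bases that what each probe reads has to be read with the other in mind. They are RefSeq sequences on GRCm38.p6, written 5′ to 3′ with the seed, bases 2 to 8, in capitals.
miR-26a-5p: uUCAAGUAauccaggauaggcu
miR-26b-5p: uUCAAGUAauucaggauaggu
miR-26a has 22 bases and miR-26b has 21. Over the 21 positions compared from the 5′ end, 19 are identical, and the differences from miR-26a to miR-26b are C11U and C21U. Of 1679 mature miRNA names in the RefSeq table, these 2 have the seed UCAAGUA. Whether a probe for one also binds the other was not tested, and the files hold no probe sequences.

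The hairpins are shown because miR-26a comes from 2 loci that the array cannot separate, since both give the same mature sequence. The mature strand is in capitals.
Mir26a-1: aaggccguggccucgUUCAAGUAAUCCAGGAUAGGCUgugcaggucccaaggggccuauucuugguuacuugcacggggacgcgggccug
Mir26a-2: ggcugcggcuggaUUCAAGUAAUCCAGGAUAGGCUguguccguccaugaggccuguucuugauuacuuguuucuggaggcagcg
Mir26b: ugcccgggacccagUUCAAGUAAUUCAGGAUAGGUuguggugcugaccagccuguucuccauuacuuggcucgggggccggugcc
Mir26a-1 lies at chr9:119031796-119031885 on the plus strand, within the span of Ctdspl (chr9:118926536-119044119), and Mir26a-2 at chr10:126995530-126995613, plus strand, within Ctdsp2 (chr10:126978717-126999975). Mir26b lies at chr1:74394310-74394394, plus strand, within Ctdsp1 (chr1:74391609-74397285). All 3 host genes are also on the plus strand, and the hairpins start 105260, 16813 and 2701 bases from the starts of Ctdspl, Ctdsp2 and Ctdsp1. The tables used here give gene spans and no exons, and the host messenger RNAs were not measured on these arrays.

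Before the results, a word on the arrays. They detected 126 to 178 mouse miRNAs each. Of 8 mesenchymal marker miRNAs, 8 were detected on some array and 7 on all 12, while of 21 markers of epithelium, muscle, blood, neural tissue, liver and endothelium, miR-205 and miR-128 were the 2 detected on any. Messenger RNA markers of fat cells were not analysed here, so the labelled state of the adipocytes was not checked. The 12 arrays lay on 2 slides, scanned at different times: slide 1 held the 3 preadipocyte arrays and MDI array 1, and slide 2 the other 8. Preadipocyte array 3, lithium array 1 and lithium plus MDI array 3 correlated worst with their own group (mean r 0.939, 0.942 and 0.924 over 157 tested miRNAs) and better with another group, as did 3 other arrays (MDI array 1 and lithium plus MDI arrays 1 and 2), and each result below was also computed without the named 3. Those 3 were picked from the same values, which tends to narrow the spread within groups. Without them, p-values may be too small and counts of miRNAs that passed too large.

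Both miRNAs were measured clearly in every sample. Each had 2 probes of 10 spots, and both probes were detected on all 12 arrays. The brighter probe, which represents each miRNA below, read a processed signal of 293 to 2007 for miR-26a and 75.9 to 521 for miR-26b, over a local background of 15.8 to 21.1. Spots of a probe agreed closely: the coefficient of variation over the kept spots of an array was 1.36% to 5.12% for miR-26a and 1.21% to 4.76% for miR-26b. The passenger strand miR-26b*, the arm of the hairpin that is usually degraded, had 4 probes, and none was detected on any array, with mean signals of -1.85 to 5.40. Since probes differ in brightness, the level of miR-26a is not set against that of miR-26b.

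miR-26a differed little between the treatments for the spread of its arrays, and its 4 groups overlapped except in 1 pair. On the normalized log2 scale, relative to the 75th percentile of probes detected on all arrays, it read 0.75, 0.37 and 1.18 on the 3 lithium plus MDI arrays and 0.15, 0.98 and 0.35 on the MDI arrays. It read 1.06, 1.03 and 1.20 on the lithium arrays and 0.85, 0.75 and 1.36 on the preadipocyte arrays. The lithium arrays lay close together and all above the 3 MDI arrays, while the other groups each spread widely. The means were 0.77 ± 0.41 in lithium plus MDI cells, 0.49 ± 0.43 in MDI cells, 1.10 ± 0.09 in lithium cells and 0.99 ± 0.33 in preadipocytes (SD, n = 3 each). From high to low the order was lithium, preadipocytes, lithium plus MDI, MDI, and no neighbours in this order differed beyond their spread. In bulk samples, fewer cells that make a miRNA and less of it per cell cannot be told apart.

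miR-26b followed another order, with lithium plus MDI cells highest. It read -0.45, -0.86 and -0.43 on the lithium plus MDI arrays and -1.80, -0.65 and -1.04 on the MDI arrays. It read -0.99, -1.50 and -0.51 on the lithium arrays and -1.45, -0.90 and -0.58 on the preadipocyte arrays. Every group overlapped every other. The means were -0.58 ± 0.24 in lithium plus MDI cells, -1.16 ± 0.58 in MDI cells, -1.0 ± 0.50 in lithium cells and -0.98 ± 0.44 in preadipocytes (SD, n = 3 each). The order was lithium plus MDI, preadipocytes, lithium, MDI, again with no neighbours apart beyond their spread. It rested on the scaling. Lithium plus MDI cells lay at -0.026 against lithium cells in the authors' value table. With the 75th percentile taken over all mouse probes they lay at -0.65 against preadipocytes. MDI array 1, the MDI array of slide 1, gave the lowest value of all 12 arrays for both miRNAs.

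**Figure D1:**
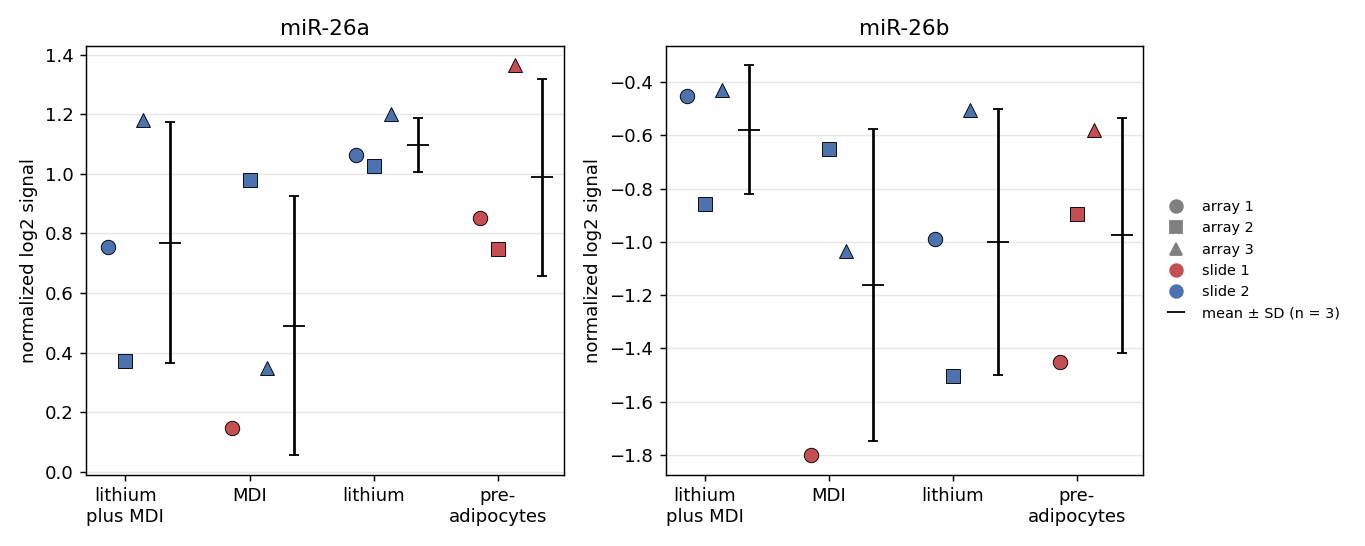
Normalized log2 signal of miR-26a (left) and miR-26b (right) on each array, by group, with colour for the slide and shape for the array number; bars are mean ± SD (n = 3). The lithium arrays sit close together for miR-26a (1.03 to 1.20), and for miR-26b all 4 groups overlap.

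MDI induction asks how the miRNAs differ between induced and undifferentiated cells, and neither passed the test across all 157 tested miRNAs. miR-26a averaged 0.49 in MDI cells and 0.99 in preadipocytes, a log2 difference of -0.50 (SE 0.30, 95% interval -1.14 to 0.15, limma adjusted p = 0.373). miR-26b averaged -1.16 in MDI cells and -0.98 in preadipocytes, a difference of -0.19 (SE 0.36, interval -0.96 to 0.58, limma adjusted p = 0.771). In this comparison 3.18% of tested miRNAs passed and 26.8% had groups that did not overlap, and the median of all of them was 0.10. The intervals leave room for a change of miR-26a by up to -1.14 on the log2 scale, so a p above the threshold does not show that the level stayed the same. The dimmer probes gave -0.51 for miR-26a and -0.31 for miR-26b. On slide 1 alone, MDI array 1 set against the 3 preadipocyte arrays gave -0.84 for miR-26a and -0.82 for miR-26b (limma adjusted p = 0.336 and 0.486), an alternative chosen after seeing the data. Without the 3 arrays that stood apart the differences were -0.31 for miR-26a and 0.011 for miR-26b.

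The size of this difference rested on the scaling. With the 75th percentile taken over all mouse probes, most of which are dark, miR-26a fell by 1.31 on the log2 scale in MDI cells against preadipocytes (limma adjusted p = 0.0127) and miR-26b fell by 0.999 (limma adjusted p = 0.0368). All 157 tested miRNAs had a median of -0.64 in that fit, so relative to it the differences were -0.67 for miR-26a and -0.36 for miR-26b. Without scaling miR-26a lay at -1.40 (limma adjusted p = 0.0335) and miR-26b at -1.09 (0.106), against a median of -0.70 for all tested miRNAs. The scale factor itself differed between the groups: it was 264 to 382 signal units on the MDI arrays and 503 to 780 on the preadipocyte arrays. It was 316 to 414 on the lithium arrays and 265 to 477 on the lithium plus MDI arrays. A factor below that of the preadipocyte arrays was thus not particular to MDI. With quantile normalization miR-26a lay at -0.37 and miR-26b at -0.19, and in the authors' value table at -0.52 and -0.16. The sign was negative for both miRNAs under each scaling, and how far they lay below the other miRNAs was smallest with normexp background correction, at -0.035 for miR-26a and -0.12 for miR-26b relative to the median.

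**Figure D2:**
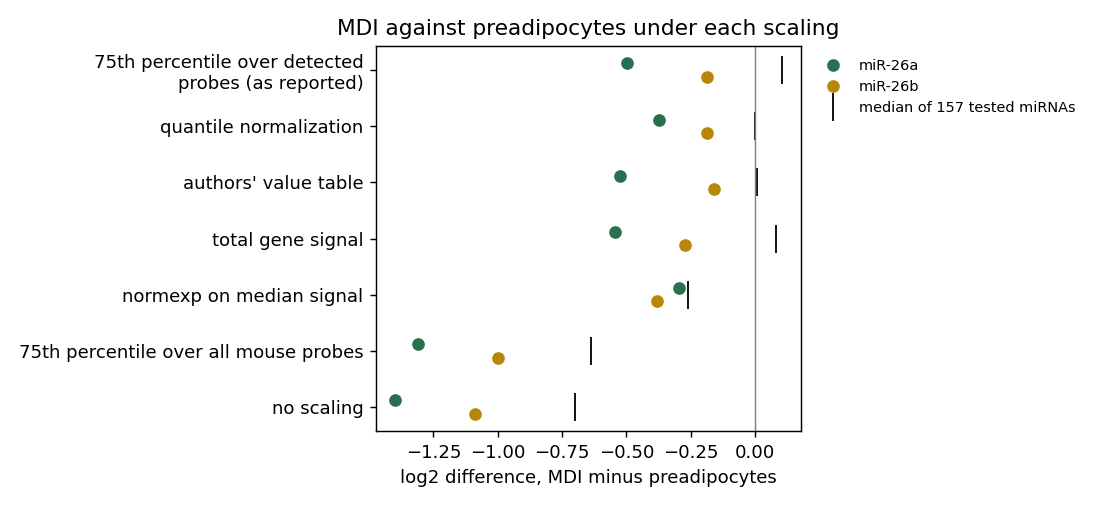
Log2 difference, MDI minus preadipocytes, of miR-26a and miR-26b (points) and the median of the 157 tested miRNAs (bars) under 7 ways of scaling or summarising the arrays. Both miRNAs lie left of 0 in each, and with the percentile over all probes or without scaling the median of all miRNAs moves left with them, to -0.64 and -0.70.

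Lithium alone, the model of activated WNT signalling, gave the smallest differences from preadipocytes, and neither passed. miR-26a averaged 1.10 in lithium cells and 0.99 in preadipocytes, a difference of 0.11 (SE 0.30, 95% interval -0.54 to 0.75, limma adjusted p = 0.846). miR-26b averaged -1.0 in lithium cells and -0.98 in preadipocytes, a difference of -0.025 (SE 0.36, interval -0.79 to 0.74, limma adjusted p = 0.962). Of all tested miRNAs 6.37% passed and 29.9% had groups that did not overlap, with a median of -0.07. With the percentile over all mouse probes miR-26a turned to -0.79 (limma adjusted p = 0.0673) and miR-26b lay at -0.92 (0.0359), where the median of all tested miRNAs was -0.90. No slide held both groups, so slide and lithium cannot be told apart here except through the MDI arrays. A fit with the slide as a block, which rests on MDI array 1, gave -0.41 for miR-26a and -0.98 for miR-26b (limma adjusted p = 0.864 and 0.491).

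Lithium plus MDI against untreated preadipocytes gave differences of opposite sign for the pair, neither past the threshold. miR-26a averaged 0.77 in lithium plus MDI cells and 0.99 in preadipocytes, a difference of -0.22 (SE 0.30, 95% interval -0.86 to 0.43, limma adjusted p = 0.664). miR-26b averaged -0.58 in lithium plus MDI cells and -0.98 in preadipocytes, a difference of 0.40 (SE 0.36, interval -0.37 to 1.17, limma adjusted p = 0.534). In this comparison 1.27% of tested miRNAs passed, 17.8% had groups that did not overlap, and the median of all was 0.30, between the pair. With the percentile over all mouse probes miR-26a fell by 1.27 (limma adjusted p = 0.0205) and miR-26b lay at -0.65, the same value as the median over the 157. The groups shared no slide. In the fit with the slide as a block, which rests on MDI array 1, miR-26a lay at -0.74 and miR-26b turned to -0.56 (limma adjusted p = 0.607 and 0.718), so the opposite signs did not hold there.

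Adding MDI to lithium-treated cells asks whether the miRNAs follow induction in cells given lithium, the model of activated WNT signalling. WNT signalling itself was not measured on these arrays. Both groups lay wholly on slide 2. miR-26a averaged 0.77 in lithium plus MDI cells and 1.10 in lithium cells, a difference of -0.33 (SE 0.30, 95% interval -0.97 to 0.32, limma adjusted p = 0.444). miR-26b averaged -0.58 in lithium plus MDI cells and -1.0 in lithium cells, a difference of 0.42 (SE 0.36, interval -0.35 to 1.19, limma adjusted p = 0.414). With limma, 0% of tested miRNAs passed, while 48 reached an unadjusted p under 0.05, 33.8% had groups that did not overlap, and the median of all was 0.39. Slide 2 alone gave the same 2 differences with adjusted p of 0.408 and 0.317. Without the 3 arrays that stood apart miR-26a lay at -0.55 (limma adjusted p = 0.118) and miR-26b at 0.35 (0.471), in a fit in which 88 of 157 miRNAs passed. Since those arrays were picked from the same values, this count may be too large.

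Lithium plus MDI against MDI asks what lithium adds to induced cells. miR-26a averaged 0.77 in lithium plus MDI cells and 0.49 in MDI cells, a difference of 0.28 (SE 0.30, 95% interval -0.37 to 0.92, limma adjusted p = 0.852). miR-26b averaged -0.58 in lithium plus MDI cells and -1.16 in MDI cells, a difference of 0.58 (SE 0.36, interval -0.19 to 1.35, limma adjusted p = 0.781), which ranked 18 of 157 by absolute size. With limma 0% of tested miRNAs passed, 6 reached an unadjusted p under 0.05 and 12.1% had groups that did not overlap, with a median of 0.18. Within slide 2, that is without MDI array 1, the differences were 0.11 for miR-26a and 0.26 for miR-26b (limma adjusted p = 0.958 and 0.848).

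MDI against lithium cells held the 1 pair of groups, among 12 pairs compared for the 2 miRNAs, whose arrays did not overlap. miR-26a averaged 0.49 in MDI cells and 1.10 in lithium cells, a difference of -0.61 (SE 0.30, 95% interval -1.25 to 0.040, limma adjusted p = 0.227). Groups failed to overlap for 30.6% of tested miRNAs in this comparison, so a pair of this kind was common. miR-26b averaged -1.16 in MDI cells and -1.0 in lithium cells, a difference of -0.16 (SE 0.36, limma adjusted p = 0.769), and within slide 2 it turned to 0.16. Within slide 2 miR-26a lay at -0.43 (limma adjusted p = 0.427). With limma 0% of tested miRNAs passed and 33 had an unadjusted p under 0.05.

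**Figure D3:**
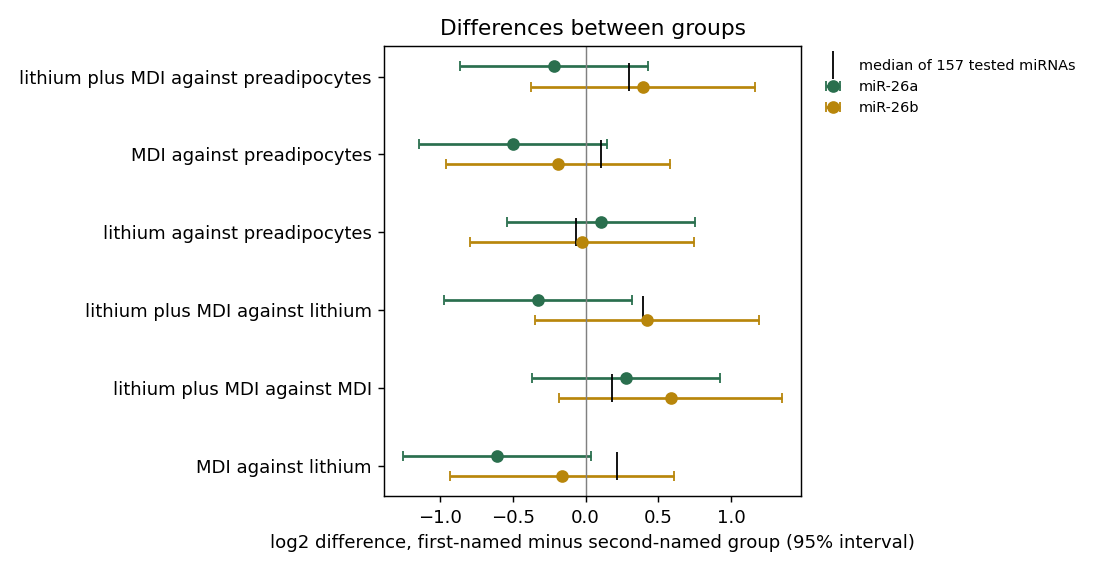
Log2 difference, first-named minus second-named group, of miR-26a and miR-26b in 6 comparisons, with 95% intervals from limma; black bars mark the median of the 157 tested miRNAs. All 12 intervals include 0, and miR-26a in MDI against lithium comes nearest to leaving it out (-1.25 to 0.040).

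The interaction, the MDI difference with lithium minus that without it, was 0.17 for miR-26a (SE 0.42, 95% interval -0.74 to 1.08, limma adjusted p = 0.833) and 0.61 for miR-26b (SE 0.50, interval -0.48 to 1.70, limma adjusted p = 0.515). With limma 0% of tested miRNAs passed for the interaction and 35 had an unadjusted p under 0.05. That of miR-26b lay at 1.48 without scaling, 1.27 with the percentile over all mouse probes, 1.25 with the slide as a block and 0.14 in the authors' value table (limma adjusted p = 0.119, 0.0828, 0.300 and 0.913). That of miR-26a turned to -0.26 with quantile normalization and to -0.24 without the 3 arrays that stood apart. Over the 7 tests of each miRNA, 0 of 14 passed and the adjusted p ranged between 0.227 and 0.962.

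The ratio of the 2 miRNAs within an array is free of the array's scale, and it was lowest in lithium plus MDI cells. The log2 value of miR-26a minus that of miR-26b was 1.21, 1.23 and 1.61 on the lithium plus MDI arrays and 1.95, 1.63 and 1.38 on the MDI arrays. It was 2.05, 2.53 and 1.71 on the lithium arrays and 2.30, 1.65 and 1.94 on the preadipocyte arrays. The lithium plus MDI arrays lay below every lithium and every preadipocyte array, in the nearest case by a narrow margin (1.61 against 1.65), and overlapped the MDI arrays. Such a separation was common among single miRNAs. Groups did not overlap for 33.8% of tested miRNAs in lithium plus MDI against lithium and for 17.8% in lithium plus MDI against preadipocytes. The share among ratios of other miRNAs was not computed. The group means were 1.35 ± 0.23 in lithium plus MDI cells, 1.65 ± 0.28 in MDI cells, 2.10 ± 0.41 in lithium cells and 1.96 ± 0.33 in preadipocytes (SD, n = 3 each). The lithium plus MDI and lithium arrays all lay on slide 2 and the preadipocyte arrays all on slide 1. Only the change of this value between groups is read, since its size also holds the brightness of the 2 probes.

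Lithium plus MDI cells differed from lithium cells by -0.75 in this ratio and from preadipocytes by -0.62, each with a two-sided exact permutation p of 0.1, the smallest that 3 against 3 arrays allow. Adjusted over the 6 pairs of groups both were 0.3, so neither passed and the design could not have passed. MDI cells differed from preadipocytes by -0.31 (exact permutation p = 0.3) and from lithium cells by -0.44 (exact permutation p = 0.2), and lithium cells differed from preadipocytes by 0.13 (exact permutation p = 0.7). Lithium plus MDI cells differed from MDI cells by -0.30 (exact permutation p = 0.2). The difference between lithium plus MDI and lithium cells was -0.94 to -0.35 over all alternatives, with the authors' value table at -0.35, while the difference from preadipocytes shrank to -0.056 with normexp background correction. With the slide as a block, an alternative chosen after seeing the data that gives a value and no test, the difference from preadipocytes was -0.18 for lithium plus MDI cells, -0.018 for MDI cells and 0.57 for lithium cells. Lithium plus MDI cells against lithium cells, within 1 slide, stayed at -0.75, and that from MDI cells within slide 2 was -0.16.

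**Figure D4:**
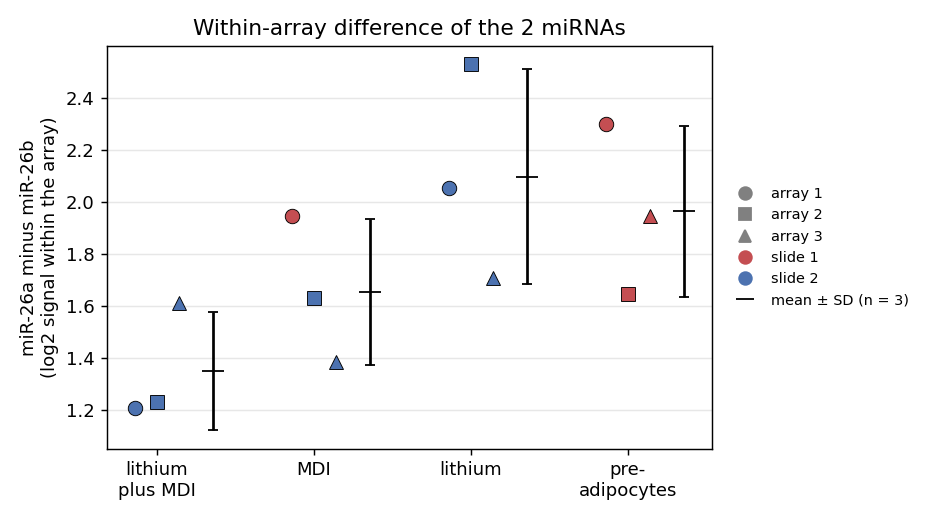
Log2 signal of miR-26a minus that of miR-26b on each array, by group, with colour for the slide and shape for the array number; bars are mean ± SD (n = 3). The lithium plus MDI arrays (1.21 to 1.61) lie below the lithium (1.71 to 2.53) and preadipocyte (1.65 to 2.30) arrays and overlap the MDI arrays (1.38 to 1.95).

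The miRNAs whose values over the 12 arrays were most like those of miR-26a were let-7c (Pearson r = 0.862), miR-146b (0.846), miR-99a (0.843), miR-199a-5p (0.803) and miR-497 (0.774), among 106 tested miRNAs with no value at the floor. They are given as a description: the points share arrays and scale factors. let-7c and miR-99a, which is encoded beside a let-7c locus, lay at -0.86 and -2.14 in MDI against preadipocytes, both in the direction of miR-26a and neither past the threshold (limma adjusted p = 0.290 and 0.0830). They were picked for following miR-26a over these same arrays, so the shared direction is no separate result. Most like miR-26b were miR-218 (r = 0.679), miR-199a-3p (0.639), miR-152 (0.601), miR-15a (0.594) and miR-30b (0.593). miR-26a and miR-26b had r = 0.530 with each other, and 0.717 once the group means were subtracted. The 2 sets of 5 share no name, but miR-199a-5p in the first and miR-199a-3p in the second are by name arms of the same miRNA precursor.

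Set beside other miRNAs with a reported role in fat cell formation, the pair lay among many that did not pass. Of 15 miRNAs reported to promote differentiation, miR-26a and miR-26b not counted, 11 were tested. None passed in any of the 7 tests, with a median of -0.61 in MDI against preadipocytes (0.10 over all tested) and 0.46 in lithium against preadipocytes (-0.07 over all). In MDI against lithium cells their median was -0.93 (0.21 over all), 3 of the 11 lay higher in MDI cells, and 9 of the 11 reached an unadjusted p under 0.05, as did 33 of all 157. Their medians in lithium plus MDI cells were -0.05 against preadipocytes, -0.51 against lithium cells and 0.49 against MDI cells (0.30, 0.39 and 0.18 over all), and 0.20 for the interaction (0.26 over all). In MDI cells against preadipocytes miR-210, known as a hypoxia-induced miRNA, lay at -1.58, miR-20a of the miR-17-92 cluster at 1.38 and miR-146b at -1.10 (limma adjusted p = 0.0614, 0.0830 and 0.448). Of 14 miRNAs reported to inhibit differentiation 10 were tested, with medians of 0.20 in MDI and -0.47 in lithium cells against preadipocytes. Their medians in lithium plus MDI cells were 0.40 against preadipocytes, 0.79 against lithium cells and 0.36 against MDI cells. The median was 0.38 in MDI against lithium cells and 0.56 for the interaction. Against lithium cells, 9 of the 10 lay higher in lithium plus MDI cells and 9 in MDI cells. An unadjusted limma p under 0.05 was reached by 6 (48 of all 157) and by 1. In MDI cells against preadipocytes miR-155 lay at -1.04, miR-27a at 0.87 and miR-145, a smooth muscle miRNA, at 0.32 (limma adjusted p = 0.155, 0.0595 and 0.489). The value of miR-145 is uncertain, since its means of -4.55 in MDI cells and -4.87 in preadipocytes lay near the floor (log2 -4.97).

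Among the inhibitors miR-27a, which targets the fat cell regulator PPARG, rose in lithium plus MDI cells. It averaged 2.31 in lithium plus MDI cells and 1.00 in preadipocytes, a difference of 1.31 (SE 0.23, limma adjusted p = 0.0133). The call was lost without preadipocyte array 1 (limma adjusted p = 0.0723) or lithium plus MDI array 1 (0.0990). Under the percentile of all mouse probes the value was 0.26 (0.571). The call was also lost without scaling (0.169), with normexp (0.359) and in the authors' value table (0.0688). It held with quantile normalization (0.00615). miR-155, an immune miRNA, fell to -1.82 in lithium cells, against -0.40 in preadipocytes (log2 difference -1.42, SE 0.38, limma adjusted p = 0.0382), and lost its call in 8 of the 12 fits that left out 1 array (limma adjusted p up to 0.235). The miR-155 call was also lost with normexp (limma adjusted p = 0.700), without the floor (0.0577) and without the detection filter (0.0743). Over miRNAs detected on all 12 arrays it was lost too (0.0684), while it held with quantile normalization (0.0179) and in the authors' value table (0.0297). With the slide as a block neither call held (limma adjusted p = 0.0535 for miR-27a and 0.363 for miR-155).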

How the data were processed

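RNA of 12 samples (0.5 ug each) was labelled with Cy3 and hybridised to Agilent mouse miRNA arrays, per the labels' protocols. The deposited scanner files hold an intensity per spot, background-subtracted by Agilent Feature Extraction (version 10.5.1.1 per the file headers, 9.5.3 per the submitters' processing notes) and not normalized between arrays. The authors also deposited a value table, read here as log2 from its range, with steps not given in the sources used here, which served as an alternative.

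Outlier spots were left out and the spots of a probe averaged. Each array was scaled to the 75th percentile of its own values for 181 mouse probes that every array detected. Values were floored at the 5th percentile of detected ones (log2 -4.97) and put on the log2 scale. Detection required that over 50% of the spots kept for a probe exceed background. The brightest probe stood for a miRNA. Tested were 157 miRNAs detected on all 3 arrays of some group; no value of miR-26a or miR-26b was at the floor, and no spot was saturated.

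limma 3.58.1 (R 4.3.3) was fitted to all 12 arrays as 4 group means (two-sided, Benjamini-Hochberg over 157, threshold 0.05) and tested on simulated data. The ratio was tested by exact permutation. The number of arrays limits the precision (median SE 0.34). Named are the 2 members, the 5 likest miRNAs of each without floor values, and, of the 2 lists, the members past the threshold or the 3 largest in MDI against preadipocytes. Members and lists were chosen with earlier results of these data known. Figures used matplotlib 3.10.9.

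Same-numbered samples of different groups deviated together in some pairs and apart in others (r between -0.48 and 0.47 over 18 pairs, above 0.1 in 9). For array 3, preadipocytes had r = 0.47 with lithium and 0.40 with lithium plus MDI cells, while MDI had -0.48 with lithium plus MDI cells. The labels state no pairing, so the numbers were not taken as pairs. A fit with the array number as a block, the replicate block, is given below. The files lacked a mean spot signal, so normexp (offset 50) used the median signal.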

Additional observations from a re-analysis of the deposited data

How the results depend on the processing

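Of 519 alternative values for 20 results on miR-26a, miR-26b and their ratio, 481 kept sign and side of the threshold, partly by design. The ratio could not pass, and the floor, the filter or leaving out an array of neither group moved no difference. Of the rest, 31 changed sign, 2 without a test moved by more than the spread between arrays and 5 newly passed. The 5 came from the scaling. With the percentile over all mouse probes, miR-26a lay at -1.31 in MDI and -1.27 in lithium plus MDI cells against preadipocytes, and miR-26b at -0.999 in MDI and -0.92 in lithium cells (limma adjusted p = 0.0127, 0.0205, 0.0368 and 0.0359). Without scaling miR-26a lay at -1.40 in MDI against preadipocytes (0.0335). Sign changes under these settings were -0.79 and -0.58 for miR-26a in lithium, and -0.65 and -0.33 for miR-26b in lithium plus MDI, against preadipocytes. Quantile normalization gave 0.053 for miR-26b in lithium against preadipocytes and -0.26 for the interaction of miR-26a, which was -0.018 with normexp. Normexp gave 0.084 for the ratio in MDI against preadipocytes. The authors' value table gave 0.13 for miR-26b and -0.083 for the ratio in lithium against preadipocytes, and -0.026 for miR-26b in lithium plus MDI against lithium. The slide as a block gave -0.41 for miR-26a in lithium and -0.56 for miR-26b in lithium plus MDI against preadipocytes, and 0.16 for miR-26b in MDI against lithium, as did slide 2 alone. The 2 that moved were the ratio with the slide as a block, at 0.57 in lithium and -0.18 in lithium plus MDI against preadipocytes. Without the 3 arrays that stood apart miR-26b lay at 0.011 in MDI and 0.17 in lithium against preadipocytes, and the interaction of miR-26a was -0.24. The cause of these changes was not tested.

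Leaving out 1 array at a time, miR-26b ranged between -0.44 and 0.13 in MDI against preadipocytes, -0.27 and 0.23 in lithium against preadipocytes, and -0.42 and 0.16 in MDI against lithium. miR-26a ranged between -0.011 and 0.30 in lithium against preadipocytes and -0.036 and 0.41 for the interaction, and the ratio between -0.083 and 0.33 in lithium against preadipocytes. With the replicate block no test of miR-26a or miR-26b passed (miR-26a in MDI against preadipocytes -0.50, limma adjusted p = 0.348). miR-155 in lithium against preadipocytes lost its call (0.0515), and the number of miRNAs past the threshold was 16 in lithium plus MDI against lithium and 4 for the interaction, both 0 as reported. The fit without the detection filter left out miRNAs at the floor on all 12 arrays. Over the alternatives the number of miRNAs past the threshold was 0 to 59 in MDI (5 as reported), 0 to 83 in lithium (10) and 0 to 44 in lithium plus MDI (2) against preadipocytes, 0 to 88 in lithium plus MDI against lithium (0), 0 to 66 in MDI against lithium (0), 0 to 69 for the interaction (0) and 0 in each fit of lithium plus MDI against MDI. The counts of 83, 88, 66 and 69 came from the fit without the 3 arrays that stood apart, which were picked from these same values. Relative to the median, normexp moved miR-26a in MDI against preadipocytes from -0.60 to -0.035.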
